A study of Mus musculus with 10 samples.

Results

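The 8 genes described here encode the transcription factors through which mammalian cells read their glucose supply and several of their best known targets: Mlxipl (ChREBP), Mlxip (MondoA), Mlx, Txnip, Arrdc4, Arrdc3, G6pc3 and Klf10. They were listed by gene symbol, with earlier results of these data known. Each was found as 1 row among the 55359 genes of the table through its mouse Ensembl identifier. All 8 passed the filter on low values that left 24560 genes for testing.

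Expression was measured by RNA sequencing in 10 orthotopic pancreatic tumors, 5 from normoglycemic C57BL/6 mice (C57BL/6 J in the methods) given regular water (CTRL) and 5 from mice given water with 30% dextrose (D30) to raise their blood glucose. By the paper's account both groups carried the same implant, luciferase-expressing K8484 cells, a single line from a mouse pancreatic tumor of the KPC model. The cells were injected into the pancreas of mice at 10 weeks of age. The tumors were compared after 14 days of regular or dextrose water. The sample titles instead say PDX (patient-derived xenograft), whereas the table holds mouse identifiers. The comparison asks how whole tumors, with the host cells in them, differed with sugar in the drinking water of an immunocompetent host. Tumors are named by their column of the table, N1, N2, N4, N5 and N6 for CTRL and T1, T2, T4, T5 and T7 for D30.

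Values are normalized counts, that is, reads per gene scaled by the size factor that the authors gave each tumor. Dividing by the value of 1 read gave back 29192261 to 42122304 reads per tumor. The keratins Krt8, Krt18, Krt19 and Krt7, which mark pancreatic ductal tumor cells, were abundant in all 10 tumors, as were Cdh1 and Msln. Epcam was between 0 and 191 normalized counts. Sox9, of the same marker list, was at 18.6 to 67.6 in CTRL and at 23.6 to 354 in D30, where T5 was highest. T4 stood apart from the rest. Its long genes (at least 6000 exon bases) were low relative to its short genes (under 2000 bases) by 1.10 on the log2 scale, against values from -0.25 to 0.52 in the tumors other than T4 and N1. T4 was also the one tumor with reads of 4 Y-linked genes (841 reads), and every other tumor had 0. According to the paper's methods, male and female hosts of orthotopic tumors were equal in number. Across genes, values in T4 and N1 declined with GC content (Spearman's rho = -0.39 and -0.51), whereas rho lay between 0.02 and 0.44 in the others. T4 and T5 had the largest share of their signal in 10 genes, 6.50% and 5.99%. For the 8 members, results that rest on these tumors are therefore also given without them. Single genes outside the members are given with all 10 tumors only.

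ChREBP and MondoA are basic helix-loop-helix leucine zipper proteins that each pair with Mlx. Glucose 6-phosphate and related sugar phosphates made from incoming glucose activate them, and the pair then binds carbohydrate response elements, tandem E-box-like sites, in the promoters of its targets. Txnip and its paralog Arrdc4 are the targets that respond most widely. Both are alpha-arrestins, adaptor proteins that lower glucose uptake by drawing glucose transporters from the cell surface, and Txnip also binds thioredoxin. ChREBP itself is known from liver, fat and islet beta cells, MondoA from muscle and from many proliferating cells.

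The promoters of Txnip, Arrdc4 and G6pc3 are shown because these genes differed in their behavior below. Each is the 250 bases before the RefSeq start site in GRCm38.p6, read on the strand of the gene, at chr3:96557707-96557956 (plus strand), chr7:68749239-68749488 (minus strand) and chr11:102189449-102189698 (plus strand). Capitals mark a match to the carbohydrate response element with at most 1 mismatch, and each CACGTG E-box.
Txnip: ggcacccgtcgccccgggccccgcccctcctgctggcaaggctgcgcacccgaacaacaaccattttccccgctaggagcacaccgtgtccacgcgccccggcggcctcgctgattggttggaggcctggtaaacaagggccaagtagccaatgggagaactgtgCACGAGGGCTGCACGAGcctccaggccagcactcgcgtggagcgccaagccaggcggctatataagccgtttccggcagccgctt
Arrdc4: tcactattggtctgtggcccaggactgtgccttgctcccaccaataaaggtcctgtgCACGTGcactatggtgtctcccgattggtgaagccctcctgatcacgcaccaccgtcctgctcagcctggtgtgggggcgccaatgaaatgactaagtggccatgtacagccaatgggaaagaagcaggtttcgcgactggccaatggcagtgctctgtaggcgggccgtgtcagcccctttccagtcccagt
G6pc3: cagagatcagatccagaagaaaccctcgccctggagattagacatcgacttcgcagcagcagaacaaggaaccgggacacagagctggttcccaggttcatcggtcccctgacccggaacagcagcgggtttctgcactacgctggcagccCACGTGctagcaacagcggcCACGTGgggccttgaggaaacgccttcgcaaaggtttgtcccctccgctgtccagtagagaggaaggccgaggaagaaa
The element was searched as 2 half-sites of 6 bases around a gap of 5 bases, and it reads the same on both strands. Txnip held it with 1 mismatch, 85 to 69 bases before the start. Among 32851 promoters of this length, 1.91% held the element at this tolerance, and none of the other members with a promoter did. CACGTG, present in 6.02% of promoters, was absent from that of Txnip, occurred once in Arrdc4, 193 bases before the start, and occurred in G6pc3 at 99 and 79 bases. CCAAT, searched on both strands, was found 6 times in the Arrdc4 window, 2 times in that of Txnip and not in that of G6pc3, and 10.1% of all promoters held it at least 2 times. In all, 7 of the 8 members had a promoter sequence, Mlxipl and Arrdc3 more than 1. No promoter is shown for Klf10. These matches are letters in a window and say nothing of what was bound.

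Txnip was the most abundant of the 8 and the only one that passed the test. It was at 11722, 6308, 9014, 8294 and 8492 normalized counts in CTRL tumors N1, N2, N4, N5 and N6, and at 14448, 25311, 45443, 43387 and 21242 in D30 tumors T1, T2, T4, T5 and T7. Every D30 tumor lay above every CTRL tumor, and the D30 values spread over a wider range. The mean rose from 8766 ± 1945 to 29966 ± 13768 (SD, n = 5 per group), and the log2 fold change was 1.67 (SE 0.31) with a 95% interval of 1.01 to 2.33, that is 3.18-fold (limma, adjusted p = 0.0123). Against the CTRL mean, single D30 tumors were 1.65-fold (T1) to 5.18-fold (T4) higher. Of all genes tested, 2.76% passed this threshold, and 6.19% had groups that did not overlap. Txnip passed in all 23 alternative analyses, and without both T4 and T5 its log2 fold change was 1.20 (adjusted p = 0.0153). The count models gave 1.76 for edgeR (adjusted p = 0.0109) and 1.77 for DESeq2 (adjusted p = 8.39e-06), where 2.61% and 7.97% of genes passed.

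**Figure D1:**
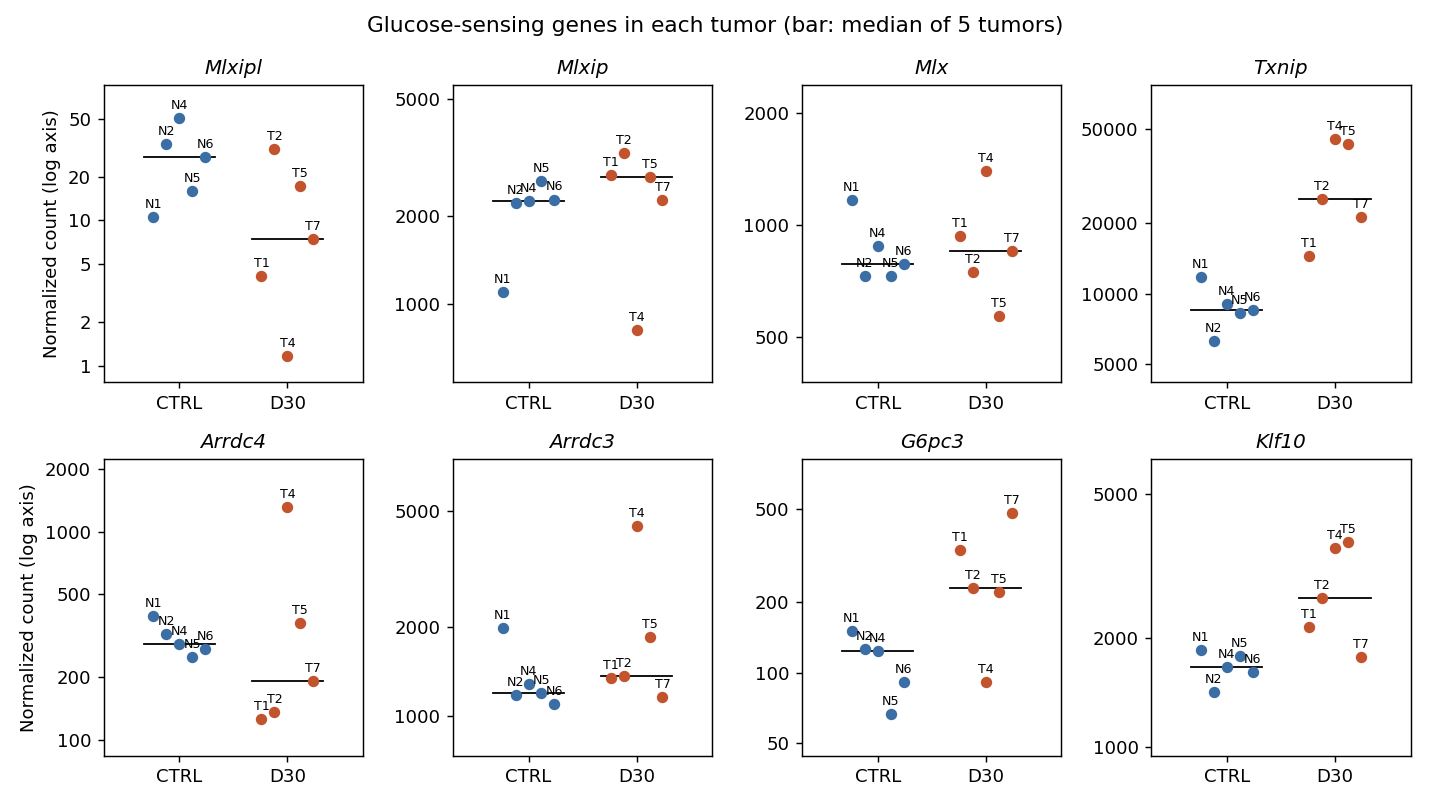
Normalized count (log axis) of each of the 8 genes in the 5 CTRL and 5 D30 tumors, with 1 labelled point per tumor and a bar at the median of the group. Txnip is the one gene in which all 5 D30 tumors sit above all CTRL tumors, whereas T1, T2 and T7 lie below all CTRL tumors for Arrdc4.

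The Txnip gene (chr3:96557957-96561883, plus strand, GRCm38) shares 19.4% of its exon bases with the antisense gene Gm15441. The libraries were strand-specific, but whether reads were counted by strand is not given in the sources used here. Gm15441 was at 26.9 ± 11.4 in CTRL and 58.3 ± 36.9 in D30 (SD, n = 5), a small part of the Txnip level.

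Arrdc4, the closest partner of Txnip in this pathway, behaved differently. Its normalized counts were 392, 322, 289, 249 and 271 in the CTRL tumors and 125, 135, 1319.7, 363 and 192 in T1, T2, T4, T5 and T7. T1, T2 and T7 lay below every CTRL tumor, T5 lay among them, and T4 was 4.33-fold above the CTRL mean. The group means were 305 ± 55.9 and 427 ± 508 (SD, n = 5), and the log2 fold change was -0.13 (SE 0.53, 95% interval -1.28 to 1.01, adjusted p = 0.929). The sign was not stable. The count models gave 0.46 (edgeR, adjusted p = 0.725) and 0.49 (DESeq2, adjusted p = 0.697), and leaving out T4 gave -0.70 (adjusted p = 0.193). Without both T4 and T5, the log2 fold change was -1.02 (limma, adjusted p = 0.0195), and 8.57% of all genes passed in that setting. T4 and T5 hold the highest D30 values of Arrdc4, and the setting was chosen after seeing the data. It keeps only T1, T2 and T7, which lay below every CTRL tumor, so it is no separate test of a decrease.

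Within each tumor, the ratio of Txnip to Arrdc4 (1 added to both) does not depend on the size factor. It was 29.8, 19.5, 31.1, 33.2 and 31.2 in the CTRL tumors and 114, 186, 34.4, 119 and 110.2 in T1, T2, T4, T5 and T7. The ratio was higher in every D30 tumor than in any CTRL tumor, though T4 exceeded the highest CTRL value by little. The mean log2 ratio rose from 4.83 ± 0.31 to 6.63 ± 0.91 (SD, n = 5), or 3.48-fold (exact permutation over tumors, two-sided, p = 0.00794, which 5 against 5 tumors cannot go below, and adjusted p = 0.0119 over 3 ratios). Without T4 the difference was 2.18 (exact permutation p = 0.00794). The ratio of Txnip to Txn1, the thioredoxin it binds, rose 2.30-fold by the same test (exact permutation p = 0.00794, adjusted p = 0.0119). It was between 1.23 and 2.01 in CTRL and between 2.16 and 7.36 in D30, where T5 was highest. Txn1 itself differed by 0.47 (log2, adjusted p = 0.440).

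Arrdc3, an alpha-arrestin studied mainly for its part in beta-adrenergic receptor trafficking and energy balance, was at 1990.4, 1177, 1282, 1191 and 1094 in CTRL and at 1347, 1365, 4437, 1851 and 1160.0 in D30. As for Arrdc4, T4 was the highest of the 10 tumors, and N1 was the highest of the CTRL tumors. The log2 fold change was 0.43 (SE 0.33, 95% interval -0.28 to 1.15, adjusted p = 0.543), and without T4 it was 0.10 (adjusted p = 0.808).

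Of the factors, Mlxipl was close to the limit of detection. It had 10, 46, 55, 18 and 32 reads in the CTRL tumors and 4, 27, 1, 15 and 7 in T1, T2, T4, T5 and T7. In normalized counts these were 10.5, 33.3, 50.3, 15.9 and 27.4 against 4.11, 30.9, 1.16, 17.2 and 7.46. T1, T4 and T7 lay below every CTRL tumor and T2 and T5 within their range. The log2 fold change was -1.50 (SE 0.70, 95% interval -3.02 to 0.02) and did not pass (limma, unadjusted p = 0.0529, adjusted p = 0.295). Between -1.96 and -0.99 under all alternatives, it passed in none. The alpha form of ChREBP and the shorter beta form start at different promoters, and both add to 1 value per gene.

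Markers of the tissues in which ChREBP is known were read in the same tumors. The summed islet markers ranged from 17.7 to 1498 in CTRL and from 0 to 83.6 in D30. Of the 7 tested, 4 passed as lower by limma, beside 2.76% of all genes in either direction. The insulin genes Ins1 and Ins2 were at 0 in T1, T2, T5 and T7. The adipocyte sum was 2754 to 7487 in CTRL and 2547 to 3483 in D30. The hepatocyte sum, mostly Apob, was 16968 to 23059 in CTRL and 15284 to 31429.7 in D30. By limma 2 of its 7 tested markers passed as lower, beside the same 2.76%, and Alb was at 0 in T1, T4, T5 and T7. The part of such cells in the Mlxipl values was not tested. In bulk tissue, fewer cells of a type and less RNA per cell cannot be told apart.

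Mlxip was expressed at 1104, 2211, 2242, 2635 and 2277 in CTRL and at 2758, 3287, 818, 2711 and 2260.4 in T1, T2, T4, T5 and T7. N1 and T4 were the lowest of their groups, and the other tumors of both groups lay between 2211 and 3287. The log2 fold change was 0.09 (SE 0.36, 95% interval -0.68 to 0.87, adjusted p = 0.925). Corrected for GC content and exon length, N1 and T4 rose to 1369 and 1531.

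Mlx, the shared partner, was at 1169.8, 727, 878, 731 and 784 in CTRL and at 934, 746, 1399.5, 568 and 852 in D30, so that T4 lay above and T5 below all CTRL tumors and the other D30 tumors lay among them. Its log2 fold change was 0.03 (SE 0.25, 95% interval -0.50 to 0.56, adjusted p = 0.970), with a sign that changed in 8 of 23 alternatives. Mlx shares 19.3% of its exon bases with Psmc3ip on the opposite strand, which was at 187 ± 47.7 in CTRL and 164 ± 117 in D30 (SD, n = 5).

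The ratio of Mlxipl to Mlxip (1 added to both) was lower in D30. It lay between 0.00642 and 0.0228 in CTRL and between 0.00185 and 0.00971 in D30, so that the groups overlapped. The mean log2 ratio differed by -1.59 (two-sided exact permutation p = 0.0238, adjusted p = 0.0238 over 3 ratios), and without T4, whose ratio rests on 1 Mlxipl read, by -1.43 (exact permutation p = 0.0397).

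G6pc3, the ubiquitous glucose-6-phosphatase of the endoplasmic reticulum, was at 151, 127, 124, 66.4 and 91.6 in CTRL and at 336, 230.2, 91.4, 221 and 485 in T1, T2, T4, T5 and T7. Except for T4, which lay within the CTRL range, each D30 tumor exceeded every CTRL tumor. The log2 fold change was 1.14 (SE 0.41, 95% interval 0.25 to 2.02), 2.20-fold, with an unadjusted p of 0.0156 and an adjusted p of 0.171. It passed in DESeq2 (1.28, adjusted p = 0.0237), beside 7.97% of all genes. It did not pass in edgeR (1.28, adjusted p = 0.114), where 2.61% of all genes passed. Without T4 it passed by limma (1.48, adjusted p = 0.0161), beside 6.23% of all genes, but this leaves out the only D30 tumor within the CTRL range.

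Klf10, a zinc finger repressor induced by TGF-beta and by glucose through ChREBP, was at 1854, 1419.7, 1658, 1779 and 1609 in CTRL and at 2139, 2576, 3544, 3671 and 1769 in D30. T7 alone of the D30 tumors fell within the CTRL range. The log2 fold change was 0.67 (SE 0.22, 95% interval 0.20 to 1.14), 1.59-fold, with an unadjusted p of 0.00924 and an adjusted p of 0.132, and did not pass. DESeq2 gave 0.72 (adjusted p = 0.0343) and edgeR 0.70 (adjusted p = 0.105). Without T4 and T5, the highest tumors for this gene, the log2 fold change was 0.37 (limma, adjusted p = 0.160).

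Over the 8 genes, 1 passed the test by limma, and 3 (Txnip, G6pc3 and Klf10) had an unadjusted p under 0.05, which 17.3% of all genes tested also had. By DESeq2 these 3 passed, beside 7.97% of all genes, and by edgeR, which called 2.61% of all genes, Txnip alone passed. The log2 fold change was positive for 6 and negative for 2, with a median of 0.26 beside -0.06 for all genes tested.

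**Figure D2:**
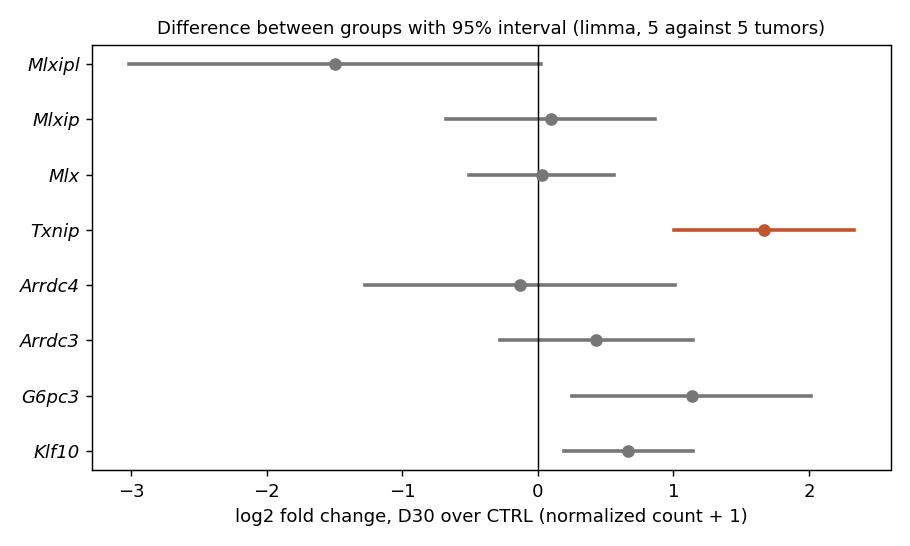
Log2 fold change of D30 over CTRL for the 8 genes, with the 95% interval from limma (5 against 5 tumors). Only the interval of Txnip is drawn in red, for an adjusted p under 0.05, and it runs from 1.01 to 2.33. The intervals of G6pc3 and Klf10 also lie above 0 but these genes did not pass after adjustment.

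Per kilobase of exon, Txnip stood above the other 7 in every tumor, at 2807 ± 623 in CTRL and 9595 ± 4409 in D30 (SD, n = 5). In CTRL tumors Mlx (429 ± 92.4) and Klf10 (398 ± 40.1) came next with overlapping ranges, followed by Mlxip (251 ± 69.6) and Arrdc3 (215 ± 58.4), whose ranges also overlapped. Arrdc4 (75.4 ± 13.8) and G6pc3 (50.3 ± 14.9) followed, again overlapping, and Mlxipl was last at 4.96 ± 2.82. ChREBP transcripts were thus far scarcer per kilobase than those of MondoA in every tumor. In D30 tumors Klf10 (656 ± 202) was in second place by mean and G6pc3 (123 ± 66.0) came before Arrdc4 (106 ± 126), but in both cases the ranges of the neighbors overlapped.

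Across the 10 tumors Klf10 varied with Txnip more closely than did any other member. On the log2 scale Pearson's r was 0.93 (permutation p = 0.00022, adjusted p = 0.00154 over 7 pairs) and Spearman's rho was 0.85 (permutation p = 0.00281, adjusted p = 0.0197). Without T4 and T5, the tumors farthest from the median of Txnip, r was 0.82 (permutation test, adjusted p = 0.0799), and with each group centred on its mean it was 0.87 (permutation test, adjusted p = 0.0890). Both values were lower and neither passed. The 2 groups differ in Txnip, and 5 tumors per group are too few for a correlation within each.

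Arrdc3 had an r of 0.68 with Txnip (permutation p = 0.018, adjusted p = 0.0632; rho 0.66, permutation p = 0.0434, adjusted p = 0.152), which dropped to 0.20 without T4 and T5 and therefore rests on them. Centred on the group means it was 0.76 (permutation test, adjusted p = 0.0890). Arrdc4 had an r of 0.33 (permutation p = 0.375, adjusted p = 0.525; rho 0.14, permutation p = 0.707, adjusted p = 0.760). Without T4 and T5 its r was -0.71 (permutation test, adjusted p = 0.118), and centred on the group means it was 0.77 (permutation test, adjusted p = 0.101), so that its sign depended on the analysis. Mlxipl, Mlxip, Mlx and G6pc3 had r between -0.55 and 0.36, with adjusted permutation p from 0.231 to 0.702 and, for rho from -0.50 to 0.37, from 0.338 to 0.760. For G6pc3, r was 0.79 without T4 and T5 (permutation test, adjusted p = 0.0799) and -0.56 when centred (permutation test, adjusted p = 0.280).

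**Figure D3:**
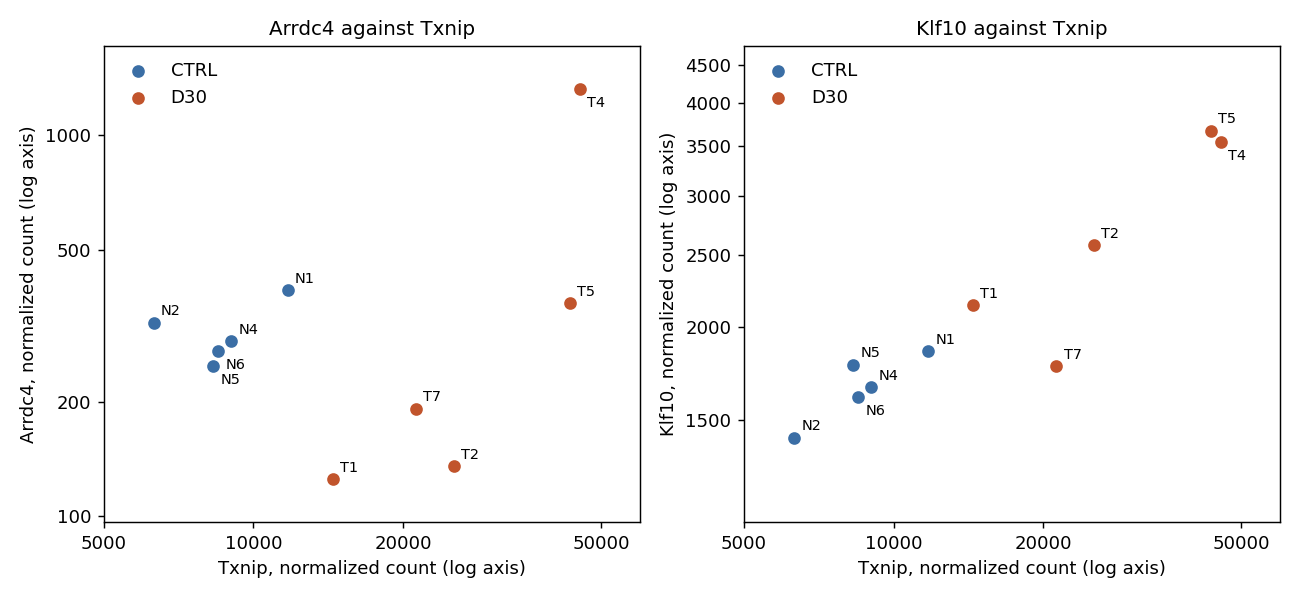
Normalized count of Arrdc4 (left) and Klf10 (right) against that of Txnip, both axes logarithmic, 1 labelled point per tumor. Klf10 climbs with Txnip over the 10 tumors (r = 0.93), whereas for Arrdc4 the D30 tumors T1, T2 and T7 lie to the lower right and T4 at the upper right.

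Among the 12447 genes whose mean reached 50 normalized counts, the 5 whose log2 values over the 10 tumors were most like those of Txnip were Immp2l (a mitochondrial inner membrane peptidase, r = 0.98), Ppm1b (a protein phosphatase, r = 0.97), Gpat3 (an acyltransferase of triglyceride synthesis, r = 0.97), Ndufa6 (a subunit of respiratory complex I, r = 0.96) and Pvt1 (a long noncoding RNA, r = 0.96). Of these, Ndufa6 passed the test between groups, with 2672 ± 252 in CTRL and 4433 ± 785 in D30 (SD, n = 5, log2 fold change 0.72, adjusted p = 0.0448). Klf10 ranked at 43 in this order, Arrdc3 at 1528 and Arrdc4 at 3867. The genes most like Mlxipl were Rasgrp4 (r = 0.96), Celf2 (r = 0.94), Letmd1 (r = 0.93), Dock2 (r = 0.92) and Arsb (r = 0.91). Dock2, a guanine exchange factor of leukocytes, and Rasgrp4, known from mast cells, are not markers of ductal cells. None of these 5 passed the test between groups (adjusted p from 0.116 to 0.363). These likenesses are descriptions, and genes are not independent replicates.

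A broader list of 26 classical ChREBP and MondoA targets held differences in both directions. Of the 25 tested, 13 were higher and 12 lower, with a median log2 fold change of 0.10 beside -0.06 for all genes. By limma 2 passed, in opposite directions, where 2.76% of all genes passed. Khk, the fructokinase, was at 784, 432, 613, 500.2 and 559.6 in CTRL and at 1082, 1767, 3648, 1446 and 1989 in D30, without overlap. It rose from 578 ± 133 to 1986 ± 989.9 (SD, n = 5), by 1.68 on the log2 scale (SE 0.29, adjusted p = 0.00898), about the size of the Txnip change. Slc2a2, the GLUT2 transporter of liver and beta cells, was at 33.7, 35.4, 18.3, 19.5 and 26.5 in CTRL and at 0, 5.73, 2.31, 0 and 6.39 in D30. It fell, with a log2 fold change of -3.27 (SE 0.64, adjusted p = 0.0162), at levels of few reads. The islet markers given above were lower in the same tumors, and their part in the Slc2a2 values was not tested.

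The next in this list was Fgf21, a hormone induced by sugars in the liver, at 2.50 ± 2.36 in CTRL and 17.4 ± 16.0 in D30 (SD, n = 5, log2 fold change 2.32, adjusted p = 0.0871). The classical enzymes of glycolysis and fat synthesis lay near 0 or below: Pklr differed by -0.11 (adjusted p = 0.901), Acaca by -0.63 (adjusted p = 0.371), Fasn by -0.60 (adjusted p = 0.649) and Scd1 by -0.03 (adjusted p = 0.956). These 4 are named after their values were seen, as known ChREBP targets. By DESeq2, 6 of the 25 passed, 5 of them higher, where 7.97% of all genes passed in either direction.

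**Figure D4:**
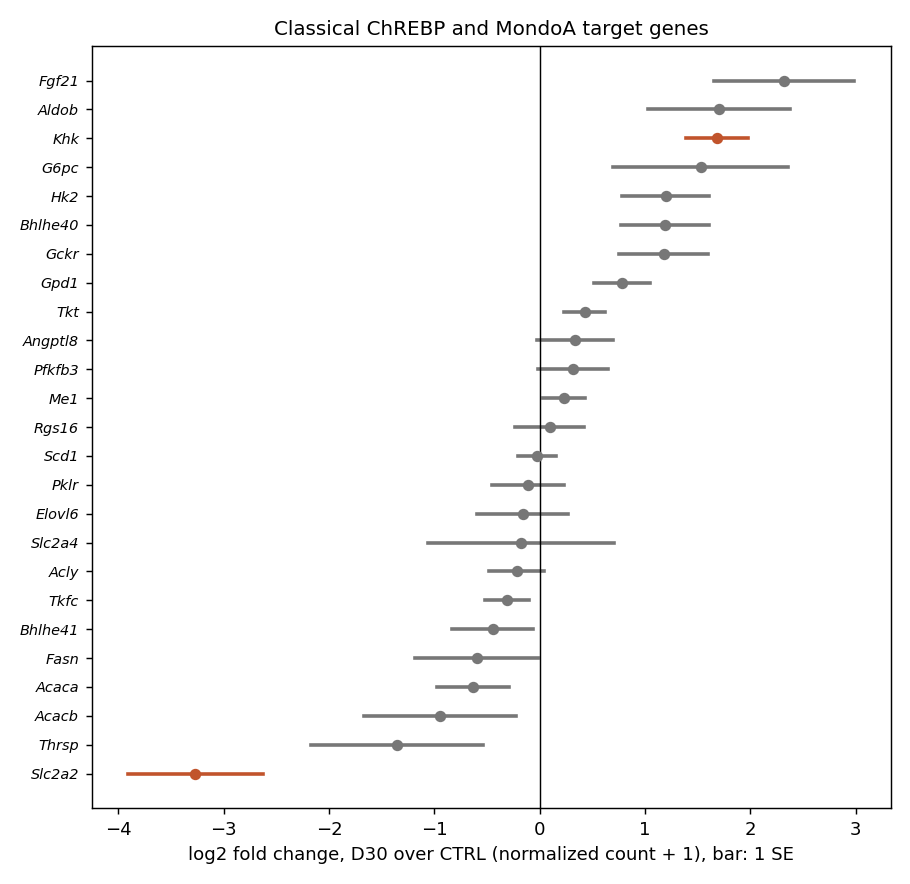
Log2 fold change of D30 over CTRL with 1 SE for the 25 tested targets of ChREBP and MondoA, ordered by size. Khk (1.68) and Slc2a2 (-3.27), in red, passed at an adjusted p under 0.05, and Pklr, Elovl6 and Scd1 lie near 0.

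In the network of Max and Mlx, bHLH leucine zipper factors that share partners, none of 13 passed by limma, while 5 had an unadjusted p under 0.05 (17.3% of all genes) and 1, Max, passed by DESeq2 (7.97% of all genes). Max, the obligate partner of Myc, was at 1435 ± 171 in CTRL and 1986 ± 127 in D30 (SD, n = 5) without overlap (log2 fold change 0.47, adjusted p = 0.139, DESeq2 adjusted p = 0.0136). The antagonists of Myc, Mxi1 (0.74, adjusted p = 0.146) and Mxd1 (0.95, adjusted p = 0.170), followed. The median of this list was 0.03.

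Among other arrestin-domain genes, 5 of 7 were tested and none passed by limma, edgeR or DESeq2. An unadjusted p under 0.05 was found for 2, beside 17.3% of all genes. The alpha-arrestin Arrdc1 differed by 0.55 (adjusted p = 0.196), and the beta-arrestins Arrb2 by 0.36 (adjusted p = 0.279) and Arrb1 by 0.50 (adjusted p = 0.550).

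Of 14 genes for thioredoxin and other proteins known to bind or act with Txnip, 8 were higher and 6 lower, with a median log2 fold change of 0.14 that turned to -0.08 with scaling by library size. By limma 1 passed (2.76% of all genes), and by DESeq2 2 passed (7.97% of all genes). Ddit4 (REDD1), an inhibitor of mTORC1 that binds Txnip, was at 3138, 3089.6, 3391, 2914 and 3288 in CTRL and at 5535, 5643, 6044, 15929 and 5387 in D30, without overlap and with T5 far above the rest. It rose by 1.14 on the log2 scale (SE 0.27, adjusted p = 0.0449). Slc2a1 (GLUT1), the transporter that Txnip draws from the membrane, was at 3376 ± 1605 in CTRL and 11542 ± 10325 in D30 (SD, n = 5) with T5 at 30003 (log2 fold change 1.56, adjusted p = 0.0635). Its groups did not overlap, and DESeq2 gave no adjusted p. Wwp1, a ubiquitin ligase that binds arrestin-domain proteins, was at 1421 ± 129.6 in CTRL and 927 ± 129 in D30 without overlap (SD, n = 5, log2 fold change -0.62, adjusted p = 0.0730), and DESeq2 gave an adjusted p of 0.0030.

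Genes that supply or remove glucose 6-phosphate were mostly higher, 12 of 13. Their median difference on the log2 scale was 0.34, against 0.73 without T4 and 0.12 with scaling by library size. None passed by limma or edgeR, 4 had an unadjusted p under 0.05 (17.3% of all genes), and 4 passed by DESeq2 (7.97% of all genes). They were led by Gpi1 (0.99, adjusted p = 0.109), Hk3 (0.96, adjusted p = 0.127) and Hk2 (1.20, adjusted p = 0.153), the isomerase and hexokinases of upper glycolysis. T5 had the highest value of all 3. Of the relatives of Klf10 and early genes of TGF-beta, none of 9 passed by limma, edgeR or DESeq2, and none had an unadjusted p under 0.05. Klf11, the nearest relative, differed by 0.59 (adjusted p = 0.306), Id1 by -0.41 (adjusted p = 0.380) and Smad7 by 0.29 (adjusted p = 0.522).

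Markers of the tumor cells and of other cell types were summed in each tumor. The summed ductal markers were 248932 to 371922 in CTRL and 369636 to 572924 in D30, and the macrophage sum was 22449.6 to 33575 and 14589 to 29372. Both of these ranges overlapped between the groups. The endothelial sum was 12785 to 20751 in CTRL and 7146 to 11482 in D30, without overlap. By limma, 1 of 8 macrophage and 1 of 8 endothelial markers passed as lower, beside 2.76% of all genes in either direction. The fibroblast sum was 76539 to 135533 in CTRL and 26981 (T4) to 102553 in D30. T cell markers summed to 295 to 609 in CTRL and 177 to 299 in D30. Each of these ranges overlapped between the groups. All 8 fibroblast and all 8 T cell markers were lower in D30, and none of them passed by limma. The part of these differences in the values of Txnip and the other members was not tested.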

How the data were processed

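RNA was sequenced as strand-specific 150-base read pairs. According to the paper's methods and the submitters' processing notes, the authors trimmed adapters with Trim Galore, aligned reads with STAR (version 2.7.0e) and used DESeq2, and the paper also lists RSEM among its software. The methods name a human reference and the notes a mouse one (GRCm39), and the table holds mouse identifiers. How RSEM was used and whether counting was by strand is not given in the sources used here. The authors deposited 1 signal per gene and tumor, a read count divided by the size factor of the tumor. In each column 100% of the values were whole multiples of 1 step (tolerance 0.01 reads), which gave back the reads. All 10 columns were used (0 left out). Columns were assigned to CTRL (letter N) and D30 (letter T) by letter, not to single animals, and p-values measure the spread between these tumors.

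From the signal, log2(value + 1) of genes with a mean of at least 1 was tested with limma (version 3.58.1, mean-variance trend) in R 4.3.3, with Benjamini-Hochberg adjustment over 24560 genes and a threshold of 0.05. Fold changes are on this scale, which understates the change of low genes. Of these genes 678 passed, 344 higher and 334 lower in D30. Whole reads were tested with edgeR (4.0.16), which called 642 genes, DESeq2 (1.42.0), which called 1957, and limma-voom. All were tested on simulated data. Single ratios were compared by two-sided exact permutation and correlations with 100000 permutations (scipy 1.17.1). Gene positions and exon lengths are from GENCODE M21 and GRCm38, promoters from RefSeq (GRCm38.p6). Alternatives changed the scaling, pseudocount, filter, model and tumors.

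The members and lists were chosen with earlier results of these data known. Beside the members, the text names every gene of a list that passed, the 3 of each list with the smallest p, and the 5 genes most correlated with Txnip and with Mlxipl.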

Additional observations from a re-analysis of the deposited data

Results flagged for a closer look

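Within a group of 5 tumors, a lowest or highest value was singled out where its gap to the nearest other exceeded 0.71 of the range of the group. Of the 16 sets of values examined (8 genes in 2 groups), 4 met this, and chance gives about 1 in 20. All 4 belong to N1 or T4. In T4, Arrdc4 was at 1319.7 normalized counts, with the next D30 tumor at 363, and Arrdc3 at 4437, with the next at 1851. In N1, Mlxip was at 1104, with the next CTRL tumor at 2211, and Arrdc3 at 1990.4, with the next at 1282. N1 and T4 are the tumors whose values declined with GC content across genes. Corrected for GC content and exon length, Arrdc4 in T4 was at 1301 and Arrdc3 at 3315, whereas Arrdc3 in N1 was at 1574 and Mlxip in N1 at 1369.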

How the results depend on the processing

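Txnip kept its direction and passed in all 23 alternatives (log2 fold change 1.20 to 1.90, adjusted p 8.39e-06 to 0.0475), as did the 3 ratios in all 13 of theirs. Alternatives without N1 and T4, without T4 and T5, with GC and length correction or with centred correlations were chosen after seeing the data. Scaling by library size moved the median of all genes from -0.06 to -0.27. The number of genes called was 1957 with DESeq2, 1563 without N1 and T4, 2105 without T4 and T5 and 1149 with GC and length correction, and 270 (N2) to 1530 (T4) with 1 tumor left out (336 without N5, 332 without N6, 435 without T7). G6pc3 passed with DESeq2 (1.28), without N1 and T4 (1.60) and without T4 and T5 (1.63), and Klf10 with DESeq2 (0.72). Arrdc4 became positive with edgeR (0.46) and DESeq2 (0.49) and passed as lower without T4 and T5 (-1.02), where Arrdc3 was at -0.029. Mlxip turned to -0.13 and Mlx to -0.20 with library size scaling, and Mlx to -0.030 without N1 and T4, -0.0063 without T4 and T5 and -0.10 with GC and length correction. With 1 tumor left out the ranges were -0.12 to 0.44 for Mlxip, -0.15 to 0.18 for Mlx, -0.70 to 0.15 for Arrdc4, 0.10 to 0.59 for Arrdc3, 0.88 to 1.48 for G6pc3 (passing without T4), 0.55 to 0.81 for Klf10, -1.96 to -0.99 for Mlxipl and 1.49 to 1.90 for Txnip. Correlations with Txnip changed sign for Mlxip (0.27) and Arrdc4 (-0.71) without T4 and T5, for Mlx with library size scaling (-0.29) and for G6pc3 when centred (-0.56), while Klf10 lost the threshold at 0.82 without T4 and T5 and at 0.87 when centred. The median of the glucose 6-phosphate list moved from 0.34 to 0.73 without T4, and that of the Txnip partners from 0.14 to -0.08 with library size scaling. The causes were not tested. No paired analysis was possible because columns carry other numbers than the labels do and could be tied to no single animal. Depth limits Mlxipl most, with 1 to 55 reads per tumor.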
